A study of Mus musculus with 2 samples.

Results

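The ISG15 conjugation system is described here through 5 genes: the modifier Isg15, its activating enzyme Uba7, its conjugating enzyme Ube2l6, its ligase Herc6 and its protease Usp18. They were taken by symbol from the count matrices of both libraries, where each symbol has 1 row, and they are 5 of 32589 genes measured. The genes were selected on their CPM values per cell class in these 2 libraries, the values compared here, so every difference between the libraries is a description, and the share of the 5 that differ supports nothing by itself. The BiDT library holds leukocytes of tumours from the BiDT-treated group, and the Ctrl library those of the control group. Both come from MC38, a mouse colon carcinoma line grown as an implanted tumour and collected 19 days after inoculation, and live cells positive for CD45, a protein that leukocytes carry on their surface, were sorted from it for single-cell RNA sequencing. The labels do not define the name BiDT and give no strain, age, dose or control agent, and the series title speaks of an interferon fused to an antibody against TIM3. Each library was made from a pool of 5 biological replicates, per the labels' protocols, so there is 1 library per group, no test between groups and no replicate check. All intervals cover counting error only.

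The BiDT library held 34996 barcodes with 130313537 UMIs (unique molecular identifiers, each counting 1 captured transcript), and the Ctrl library 34310 barcodes with 211047063 UMIs. After filtering, 31709 BiDT cells with a median of 2619 UMIs and 30415 Ctrl cells with a median of 4172 UMIs remained, and 713 barcodes occurred in both libraries. Cells were placed in classes by panels of 8 marker genes, none of them an ISG15 system gene. Cells that met the T panel but were not resolved into 1 T subset (451 in BiDT and 273 in Ctrl) are counted only among all filtered cells. The 10 other classes with at least 50 cells in each library are described. Each had markers of its own and 0 markers of other panels among its 10 leading genes. The gate on the same markers favours this, so it is no independent check of identity. Conventional CD4 T-like and regulatory T-like cells had only 1 such marker each, Cd4 and Foxp3, the genes that set these subsets. The classes are called by the panel they met ("CD8 T-like"). The tumour or stromal-like class, whose panel cannot tell MC38 cells from fibroblasts, was present although the cells had been sorted on CD45. The gate left 34.6% of BiDT and 19.0% of Ctrl cells without a class, and those cells are described at the end. Malat1, a nuclear noncoding RNA whose share can rise in damaged cells, took 0.823% of UMIs in BiDT and 0.41% in Ctrl and was higher in BiDT in each class. Its part in the results was not tested.

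ISG15 is a ubiquitin-like protein that interferons induce strongly. UBA7 activates it, UBE2L6 carries it, and a ligase of the HERC family, HERC6 in mice and HERC5 in humans, attaches it to lysines of other proteins. USP18 takes ISG15 off its substrates again, and, apart from its protease activity, it binds the interferon receptor chain IFNAR2 together with STAT2 and dampens signalling from that receptor. Unconjugated ISG15 is also released from cells and acts on lymphocytes through the integrin LFA-1. The transcript counts say how much mRNA of each gene was captured, not how much protein was conjugated.

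The start regions of Isg15 and Uba7 are shown for 2 reasons: Isg15 held the most copies of the interferon-stimulated response element, a DNA motif through which type I interferons induce genes, and Uba7 had the smallest difference between the libraries over all cells. RefSeq windows from 250 bases before to 50 bases after the transcript start (GRCm38.p6, an older build than the GRCm39 build of the counts) could be matched for 4 of the 5 genes, Isg15, Uba7, Ube2l6 and Herc6. The first transcribed bases of the Herc6 window were not found in a GENCODE transcript of the gene, so its start is uncertain. The windows lie on chr4:156200769-156201068, minus strand, for Isg15 and on chr9:107975317-107975616, plus strand, for Uba7. Both are printed 5′ to 3′ on the strand of the gene, with matches to the response element (GAAA, any 2 bases, GAAA) or to AANNGAAA (the shorter core bound by interferon regulatory factors) on either strand in capitals.
Isg15: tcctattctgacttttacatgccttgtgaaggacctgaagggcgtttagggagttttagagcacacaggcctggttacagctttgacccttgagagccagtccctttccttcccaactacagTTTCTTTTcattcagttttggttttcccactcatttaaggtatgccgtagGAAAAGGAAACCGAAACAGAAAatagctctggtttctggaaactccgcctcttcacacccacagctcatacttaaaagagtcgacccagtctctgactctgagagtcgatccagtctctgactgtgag
Uba7: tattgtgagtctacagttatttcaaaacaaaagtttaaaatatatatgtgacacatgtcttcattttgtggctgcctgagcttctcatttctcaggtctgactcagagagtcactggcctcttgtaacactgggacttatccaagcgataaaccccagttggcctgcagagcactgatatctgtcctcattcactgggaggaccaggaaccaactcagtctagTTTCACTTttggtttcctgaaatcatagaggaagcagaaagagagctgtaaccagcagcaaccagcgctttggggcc
In Isg15, 3 overlapping copies of the response element start at positions -78, -72 and -66 from the transcript start, each containing 1 AANNGAAA, and a further AANNGAAA lies on the other strand at position -128. Uba7 holds 1 AANNGAAA, on the other strand at position -27, and no response element. Neither motif, nor the gamma-activated site TTCNNNGAA, was found in the windows of Ube2l6 and Herc6. Of 32851 mouse windows of the same length, 3.44% hold the response element, 23.9% AANNGAAA and 8.3% TTCNNNGAA, so a single AANNGAAA is common. A match is a run of letters and not a shown binding site.

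Over all filtered cells, transcripts of all 5 genes were more abundant in BiDT. Levels are given in counts-per-million (CPM), the UMIs of a gene as a part of all UMIs of the class and library. Isg15 stood at 1599.6 CPM in BiDT and 203 CPM in Ctrl, Usp18 at 171 CPM in BiDT and 14.1 CPM in Ctrl, and Herc6 at 108 CPM in BiDT and 23.5 CPM in Ctrl. Ube2l6 stood at 151 CPM in BiDT and 47.2 CPM in Ctrl, and Uba7 at 63.3 CPM in BiDT and 24.7 CPM in Ctrl. The log2 ratios of BiDT over Ctrl were therefore 3.59 for Usp18, 2.98 for Isg15, 2.19 for Herc6, 1.68 for Ube2l6 and 1.35 for Uba7, so the protease and the modifier differed most and the activating enzyme least. All 5 were at least 1.5-fold higher, and so were 24.5% of 16853 genes with at least 50 UMIs (6.65% were lower). With TMM scaling (trimmed mean of M-values, which shifts every log2 ratio over all cells by -0.22), 17.2% of all genes were higher and 13.5% lower, and all 5 stayed past 1.5-fold. Since the class make-up of the libraries differs, values within classes follow. In a sum over cells, fewer cells with a transcript and less of it per cell cannot be told apart, and shares of cells are given further on.

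**Figure D1:**
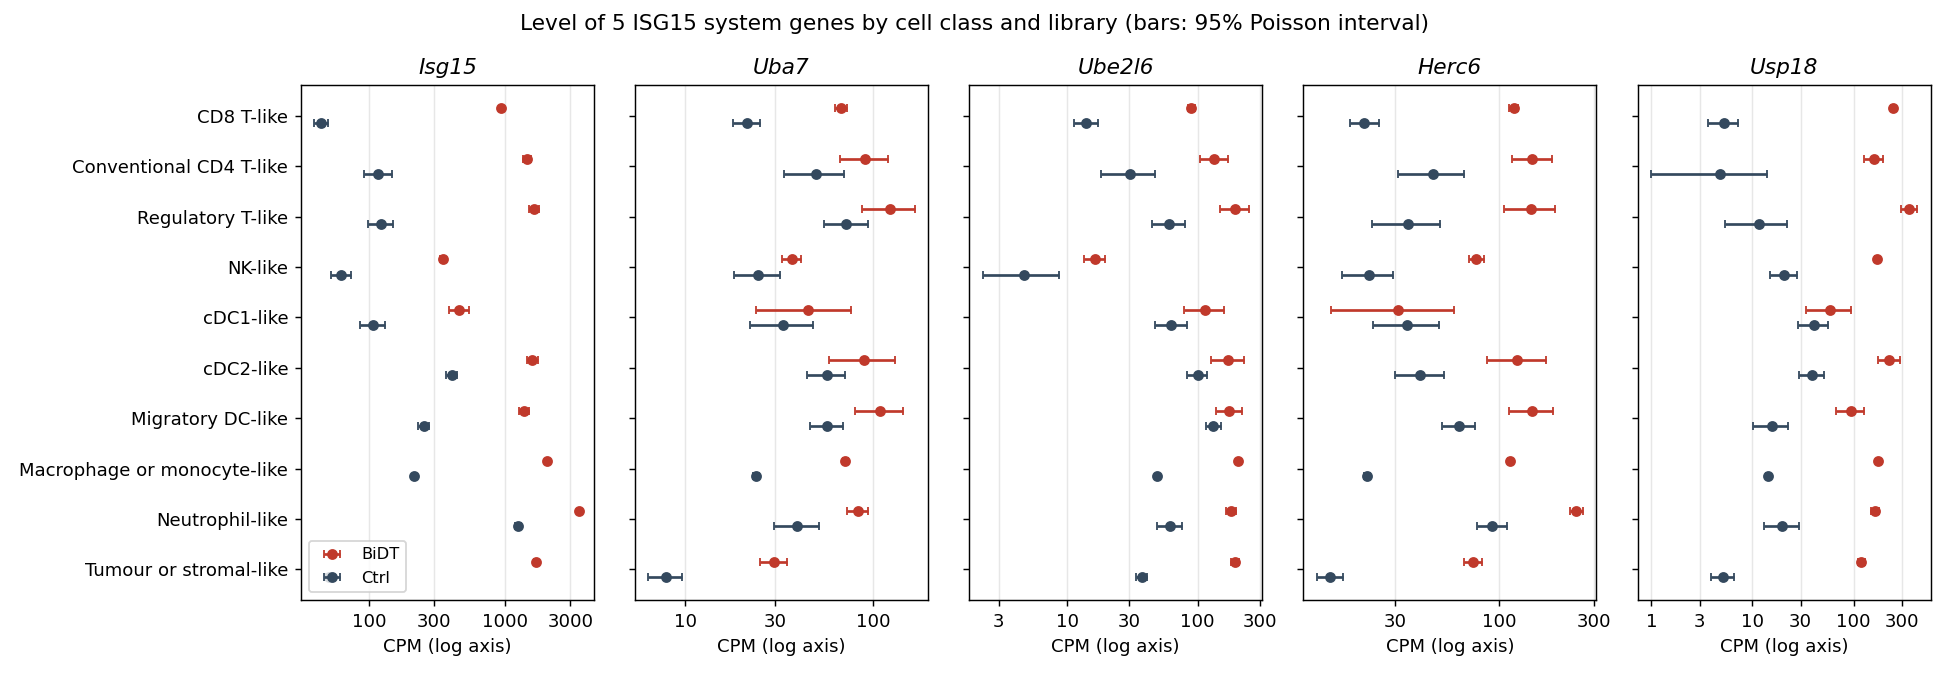
Level of each gene (CPM, log axis) in 10 cell classes, BiDT in red above Ctrl in blue, with 95% Poisson intervals that cover counting error of 1 library each. Isg15 is higher in BiDT in each class, with its highest levels in neutrophil-like cells, and the intervals of Uba7, Herc6 and Usp18 overlap between the libraries in cDC1-like cells.

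Isg15, the modifier itself, was higher in BiDT in all 10 classes, and in none did the intervals of the libraries overlap. Neutrophil-like cells had the highest level in both libraries, at 3503 CPM in BiDT (95% interval 3434 to 3574) and 1239.6 CPM in Ctrl (1181 to 1300.1). This class also had the smallest log2 ratio of the gene, 1.5 (1.42 to 1.57). The largest ratio was that of tumour or stromal-like cells, 5.04 (4.92 to 5.17), at 1672 CPM in BiDT and 50.7 CPM in Ctrl. CD8 T-like cells followed with 929.8 CPM in BiDT and 44.1 CPM in Ctrl (log2 4.40), the lowest Ctrl level of the 10 classes. Regulatory T-like cells had 1623 CPM in BiDT and 121 CPM in Ctrl (3.74), and conventional CD4 T-like cells 1445 CPM in BiDT and 117 CPM in Ctrl (3.63). Among the 10 classes, the ratios of the T-like ones lay above those of the other leukocyte classes. The C1q-high range of macrophage or monocyte-like cells, described below, also reached 3.74 (3.71 to 3.77). With a gate on thinned counts, which left 55 BiDT regulatory T-like and 129 BiDT conventional CD4 T-like cells, the ratios were 2.72 in the regulatory and 4.39 in the conventional class. The largest class, the macrophage or monocyte-like cells, had 2030.4 CPM in BiDT and 212 CPM in Ctrl (3.26). NK-like cells reached only 347 CPM in BiDT and 62 CPM in Ctrl (2.48), the lowest BiDT level. Dendritic cell (DC) classes differed by less, with log2 2.46 in migratory DC-like cells (1378 CPM in BiDT and 251 CPM in Ctrl), 2.11 in type 1 conventional DC-like (cDC1-like) cells (457 CPM in BiDT and 106 CPM in Ctrl) and 1.97 in type 2 conventional DC-like (cDC2-like) cells (1581 CPM in BiDT and 403 CPM in Ctrl).

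The order of the classes by Isg15 level differed between the libraries. In BiDT it ran from neutrophil-like through macrophage or monocyte-like, tumour or stromal-like, regulatory T-like, cDC2-like, conventional CD4 T-like, migratory DC-like, CD8 T-like and cDC1-like to NK-like cells, and the highest class was 10.1-fold above the lowest. In Ctrl it ran from neutrophil-like through cDC2-like, migratory DC-like, macrophage or monocyte-like, regulatory T-like, conventional CD4 T-like, cDC1-like and NK-like to tumour or stromal-like and CD8 T-like cells, over a 28.1-fold span. Neighbours whose intervals overlapped were, in BiDT, those from tumour or stromal-like to migratory DC-like cells, and in Ctrl those from regulatory T-like to cDC1-like and from NK-like to CD8 T-like cells. The span of levels between classes was also smaller in BiDT for Uba7 (4.13-fold in BiDT and 9.17-fold in Ctrl), Ube2l6 (12.5-fold in BiDT and 28.1-fold in Ctrl) and Usp18 (6.05-fold in BiDT and 8.44-fold in Ctrl), but not for Herc6 (7.85-fold in BiDT and 6.52-fold in Ctrl). Several of these spans rest on under 50 UMIs in the lowest class.

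Uba7, the enzyme that activates ISG15, had the smallest ratio of the 5 genes in 8 of the 10 classes. In CD8 T-like cells it stood at 67.8 CPM in BiDT and 21.3 CPM in Ctrl (log2 1.67 (1.41 to 1.94)), and in macrophage or monocyte-like cells at 71.2 CPM in BiDT and 23.9 CPM in Ctrl (1.58). Tumour or stromal-like cells had the lowest level of the gene in both libraries and its largest ratio, with 29.7 CPM in BiDT and 7.88 CPM in Ctrl (1.92). Regulatory T-like cells had the highest level in both libraries, 123 CPM in BiDT and 72.2 CPM in Ctrl (0.76 (0.14 to 1.38)). The log2 ratio was below that of macrophage or monocyte-like cells in neutrophil-like cells (1.07), migratory DC-like cells (0.95), conventional CD4 T-like cells (0.87) and NK-like cells (0.60 (0.17 to 1.06)). In cDC2-like and cDC1-like cells, at 0.65 (-0.05 to 1.32) and 0.43 (-0.64 to 1.43), the interval included 0. The direction turned in regulatory T-like cells with a gate set on thinned counts (-1.06), in NK-like cells between 2000 and 4000 UMIs deep (-0.44), in thinned cDC2-like cells (-0.01), and in cDC1-like cells both when thinned (-0.98) and between 2000 and 4000 UMIs (-2.02).

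Ube2l6, the enzyme that carries ISG15 to its substrates, had the widest span of levels between classes in BiDT. It was high in macrophage or monocyte-like cells (203 CPM in BiDT and 48.9 CPM in Ctrl, log2 2.05), tumour or stromal-like cells (194 CPM in BiDT and 37.4 CPM in Ctrl, 2.38), regulatory T-like cells (193 CPM in BiDT and 60.6 CPM in Ctrl, 1.67) and neutrophil-like cells (181 CPM in BiDT and 61.5 CPM in Ctrl, 1.55). The intervals of neighbouring classes in that list overlapped in BiDT. CD8 T-like cells had the largest ratio, 2.67 (2.37 to 2.99), at 89.8 CPM in BiDT and 14.1 CPM in Ctrl. Conventional CD4 T-like cells had 135 CPM in BiDT and 30.3 CPM in Ctrl (2.15). In migratory DC-like cells, the class with the highest Ctrl level, 176 CPM in BiDT and 132 CPM in Ctrl gave a ratio of only 0.41 (0.02 to 0.79). The ratios of cDC1-like and cDC2-like cells were 0.86 (0.18 to 1.51) and 0.78 (0.28 to 1.26), and in cells between 2000 and 4000 UMIs deep they turned to -0.02 and -0.07, and that of migratory DC-like cells to -0.14. NK-like cells stood apart with 16.3 CPM in BiDT (95% interval 13.5 to 19.4) and 4.7 CPM in Ctrl (2.25 to 8.64), below every other class in both libraries by intervals that did not overlap, and their log2 ratio was 1.79 (0.86 to 2.89).

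Herc6, the ligase of the mouse system, was highest in neutrophil-like cells in both libraries, at 244 CPM in BiDT (95% interval 226 to 264) and 92.3 CPM in Ctrl (76.9 to 109.9). No other class had an interval that reached that level in BiDT. The log2 ratio was 1.40 there and larger in CD8 T-like cells (118 CPM in BiDT and 21 CPM in Ctrl, 2.49 (2.24 to 2.75)), macrophage or monocyte-like cells (113 CPM in BiDT and 21.6 CPM in Ctrl, 2.39) and tumour or stromal-like cells (74 CPM in BiDT and 14.2 CPM in Ctrl, 2.39). In these classes the intervals of the libraries were far apart. Regulatory T-like cells had 144 CPM in BiDT and 34.8 CPM in Ctrl (2.05), NK-like cells 76.8 CPM in BiDT and 22.1 CPM in Ctrl (1.80) and conventional CD4 T-like cells 146 CPM in BiDT and 46.3 CPM in Ctrl (1.66). The DC classes ranged from 1.62 in cDC2-like and 1.21 in migratory DC-like cells to -0.15 (-1.41 to 0.97) in cDC1-like cells, where only 9 BiDT and 29 Ctrl UMIs were counted. In tumour or stromal-like cells the ratio was 3.04 after thinning and 3.30 between 2000 and 4000 UMIs.

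Usp18, the protease that removes ISG15 and restrains the interferon receptor, had the largest ratio of the 5 genes in 8 of the 10 classes, the exceptions being tumour or stromal-like and cDC1-like cells, where Isg15 led. In CD8 T-like cells it stood at 246 CPM in BiDT (95% interval 237 to 256) and 5.18 CPM in Ctrl (3.61 to 7.21), a 47.4-fold difference (log2 5.57 (5.09 to 6.09)). Other T-like classes had similar ratios on few Ctrl transcripts. Regulatory T-like cells had 356 CPM in BiDT and 11.6 CPM in Ctrl from 116 BiDT and 9 Ctrl UMIs (4.94 (3.96 to 6.10)), the highest BiDT level of the 10 classes. Conventional CD4 T-like cells had 158 CPM in BiDT and 4.79 CPM in Ctrl from 82 BiDT and 3 Ctrl UMIs (5.04 (3.44 to 7.35)). In macrophage or monocyte-like cells the gene stood at 175 CPM in BiDT and 14.4 CPM in Ctrl (3.60). Neutrophil-like cells had 163 CPM in BiDT and 19.8 CPM in Ctrl (3.04, and 3.96 after thinning), and NK-like cells 171 CPM in BiDT and 20.7 CPM in Ctrl (3.05). In tumour or stromal-like cells 119.5 CPM in BiDT and 5.11 CPM in Ctrl gave 4.55 (4.17 to 4.95), and between 2000 and 4000 UMIs, where 162 BiDT and 95 Ctrl cells remained, the ratio was 2.73. Migratory DC-like and cDC2-like cells had 93.6 CPM in BiDT and 15.5 CPM in Ctrl (2.60) and 226 CPM in BiDT and 38.6 CPM in Ctrl (2.55). cDC1-like cells were the class with the highest Ctrl level of the gene and the lowest BiDT level, 58.8 CPM in BiDT and 40.4 CPM in Ctrl. These came from 17 BiDT and 34 Ctrl UMIs, and the interval of the ratio, 0.54 (-0.39 to 1.42), included 0. After thinning, 5.97% of BiDT and 0% of Ctrl cDC1-like cells carried Usp18, so no ratio could be formed. Under the alternatives that gave a ratio it ranged from 0.15 to 2.36, with 1.49 under a stricter and 1.56 under a looser gate.

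**Figure D2:**
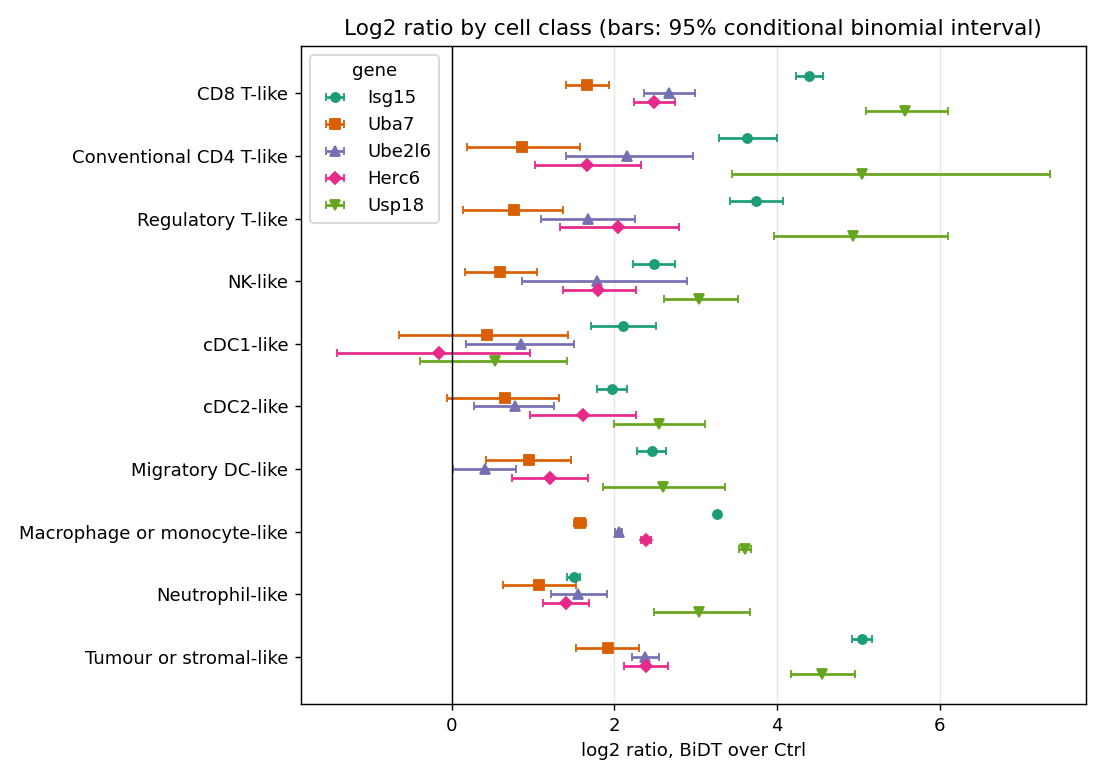
Log2 ratio of BiDT over Ctrl for each gene in each of 10 classes, with 95% conditional binomial intervals that cover counting error. Usp18 and Isg15 lie furthest right in T-like and tumour or stromal-like cells, Uba7 lies nearest to 0 in most classes, and in cDC1-like cells the intervals of Uba7, Herc6 and Usp18 include 0.

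In most classes, then, all 5 genes were at least 1.5-fold higher in BiDT. The count was 5 of 5 in CD8 T-like cells, where 9.6% of all 10494 genes tested were that much higher and 4.46% that much lower. It was also 5 of 5 in conventional CD4 T-like cells (10.7% higher and 8.51% lower among all genes tested), regulatory T-like cells (10.9% and 11.3%) and NK-like cells (12.6% and 5.25%). The same count was found for macrophage or monocyte-like cells (18.6% and 9.84%), neutrophil-like cells (11% and 13.5%), tumour or stromal-like cells (15.9% and 5.15%) and cDC2-like cells (12.5% and 14.1%). With TMM scaling these shares of all genes became 13.2% and 16.3%, 15.4% and 8.38%, 10.8% and 11.6% and 9.45% and 17.7%, and the members' count stayed 5 in each of these classes but the cDC2-like one, where it was 4. TMM scaling shifted the ratios of a class by between -0.22 and 0.13. In NK-like cells Uba7 was just past 1.5-fold, and their count was 4 under 7 of 12 alternative settings, among them TMM scaling and leaving out the barcodes found in both libraries. Migratory DC-like cells had 4 of 5, with Ube2l6 below that size (16.2% and 11.3%, or 9.34% and 19.4% with TMM scaling). In cDC1-like cells 3 genes had the 50 UMIs needed, and Isg15 and Ube2l6 were past 1.5-fold and Usp18 not (10.6% and 15%). None of the 5 was at least 1.5-fold lower in any class. The median log2 ratio of all genes tested lay between -0.08 and 0.09 in these classes. The cDC1-like count rested on 67 BiDT and 119 Ctrl cells and moved with the gate, to 4 with a looser gate and to 5 with a gate on thinned counts, under which Usp18 reached a log2 ratio of 2.36 and Herc6 of 1.72. Under another gate a gene was counted only if it kept 50 UMIs there. The 5 of cDC2-like cells became 1 under a stricter gate that left 21 BiDT cells, although Isg15 (log2 1.28) and Usp18 (1.31) were past 1.5-fold. The 5 of regulatory T-like cells became 1 with a gate on thinned counts, which left 55 BiDT cells. Isg15 (2.72) and Usp18 (3.57) were past 1.5-fold there, and Uba7 turned to -1.06. The lowest regulatory T-like ratios of Herc6 and Ube2l6 over the 12 alternative settings were 1.56 and 0.88.

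In most classes the differences were also seen as more cells with a transcript. Cells were thinned to 1000 UMIs each so that the deeper Ctrl library had no advantage. In macrophage or monocyte-like cells Isg15 was detected in 66% of BiDT cells (exact 95% interval 65.2 to 66.8%) and 16.7% of Ctrl cells (16.2 to 17.2%). Without thinning the transcript was found in 84.2% of BiDT and 42.3% of Ctrl cells. In the CD8 T-like class it was detected in 53.2% of BiDT cells (exact 95% interval 51.2 to 55.2%) and 4.02% of Ctrl cells (3.11 to 5.1%), and without thinning in 80.2% of BiDT and 12% of Ctrl cells. The shares were 67.4% of BiDT and 4.98% of Ctrl cells in the tumour or stromal-like, 28.3% of BiDT and 3.46% of Ctrl cells in the NK-like and 78.5% of BiDT and 51.2% of Ctrl cells in the neutrophil-like class. In each of these classes the share was higher in BiDT, and only in neutrophil-like cells did over 50% of Ctrl cells carry the transcript. Usp18 was rarer, in 19.7% of BiDT and 0.502% of Ctrl cells of the CD8 T-like class, 12.5% of BiDT and 1.44% of Ctrl cells of the macrophage or monocyte-like class and 13.9% of BiDT and 1.33% of Ctrl cells of the NK-like class. Of 195 conventional CD4 T-like cells in Ctrl, 0 carried Usp18 after thinning, which allows, of cells with a UMI at that depth and not of cells expressing the gene, a share of up to 1.87% by the exact interval. Unthinned, the gene was found in 30.3% of BiDT and 1.54% of Ctrl cells of that class. Herc6 reached 19.7% of BiDT and 7.9% of Ctrl cells of the neutrophil-like class, its highest share in each library. Uba7 had its highest BiDT share in conventional CD4 T-like cells, with 12.6% of BiDT and 4.62% of Ctrl cells. Its share was lower in BiDT, by overlapping intervals, in cDC1-like (2.99% of BiDT and 5.04% of Ctrl) and cDC2-like cells (7.89% of BiDT and 8.44% of Ctrl). For Ube2l6 in migratory DC-like cells the shares were 13.8% in BiDT and 12.4% in Ctrl.

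Several of the genes were found together in 1 cell more often in BiDT. Such shares rise when each gene by itself is detected in more cells, and joint detection beyond that was not tested. At least 2 of the 5 were detected in 29.7% of BiDT and 3.67% of Ctrl macrophage or monocyte-like cells after thinning. In CD8 T-like cells these shares were 26% in BiDT and 0.691% in Ctrl, and in neutrophil-like cells 37.8% in BiDT and 11.2% in Ctrl. NK-like cells, at 9.84% in BiDT and 0.798% in Ctrl, and cDC1-like cells, at 10.4% in BiDT and 4.2% in Ctrl, had the lowest BiDT shares. Cells with none of the 5 still made up 32.3% of BiDT and 90.3% of Ctrl CD8 T-like cells. At 1000 UMIs a cell without a UMI of a gene need not lack its transcript.

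**Figure D3:**
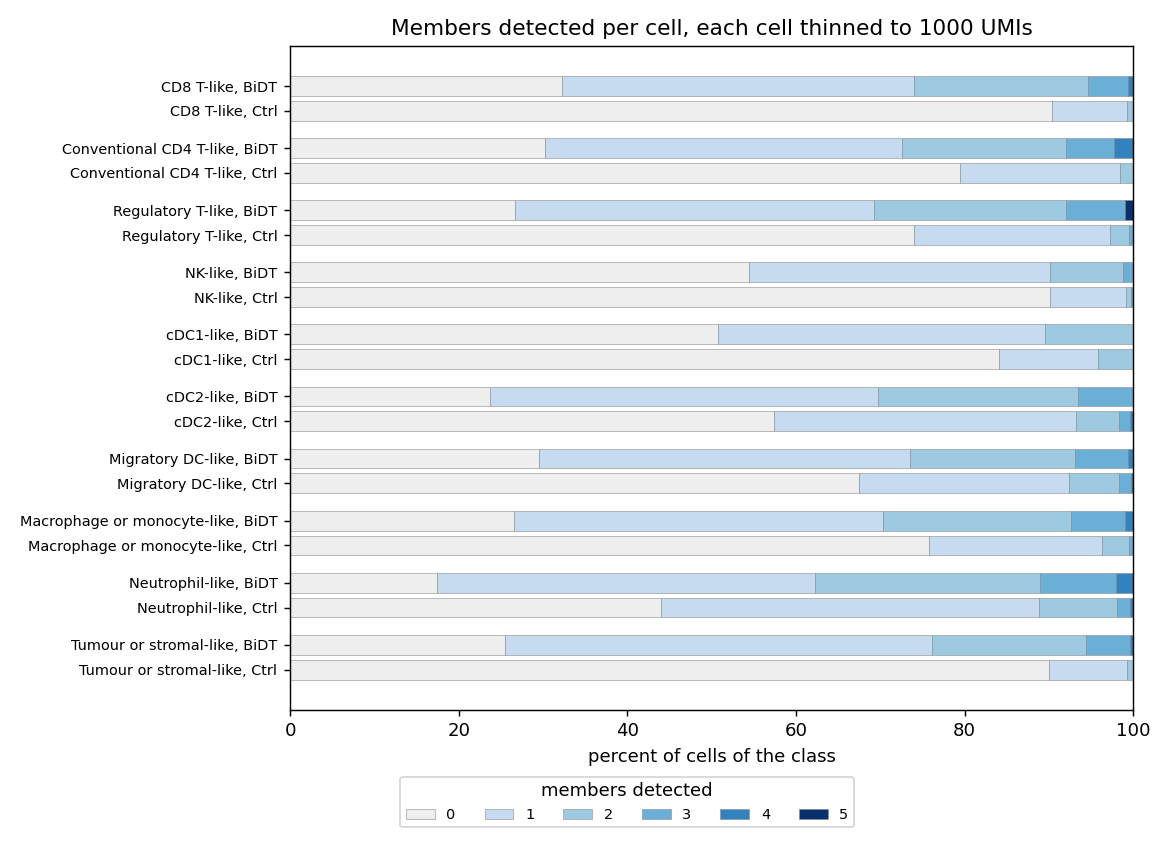
Percent of cells of each class in which 0 to 5 of the 5 genes were detected after thinning each cell to 1000 UMIs, with BiDT above Ctrl for each class. The pale bar of cells with 0 genes is shorter in BiDT in each class, and shortest in neutrophil-like cells at 17.4%.

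In the macrophage or monocyte-like class of each library, cells with more Isg15 also had more of the 4 other genes. Thinned macrophage or monocyte-like cells were divided by their Isg15 UMIs into those with 0 (4637 BiDT and 16302 Ctrl cells), 1 or 2 (5052 BiDT and 2815 Ctrl cells) and 3 or more (3968 BiDT and 451 Ctrl cells). Across these ranges, Usp18 stood at 63.8, 129 and 275 CPM in BiDT, and at 8.53, 39.4 and 129 in Ctrl. The Ctrl cells with 3 or more Isg15 UMIs, 2.3% of the class, thus had about the Usp18 level of the BiDT cells with 1 or 2. Herc6 stood at 50.9, 102 and 182 in BiDT, and at 18.7, 42.3 and 149 in Ctrl. For Ube2l6 the values were 108, 184 and 329 in BiDT, and 47, 88.1 and 193 in Ctrl. Uba7 followed the same order with the smallest range, 53.9, 69.3 and 108 in BiDT, and 24.8, 37.7 and 99.8 in Ctrl. In both libraries the intervals of the lowest and highest ranges did not overlap for any of the 4 genes. Cells are not replicates of a condition, and these ranges describe 1 library each.

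**Figure D4:**
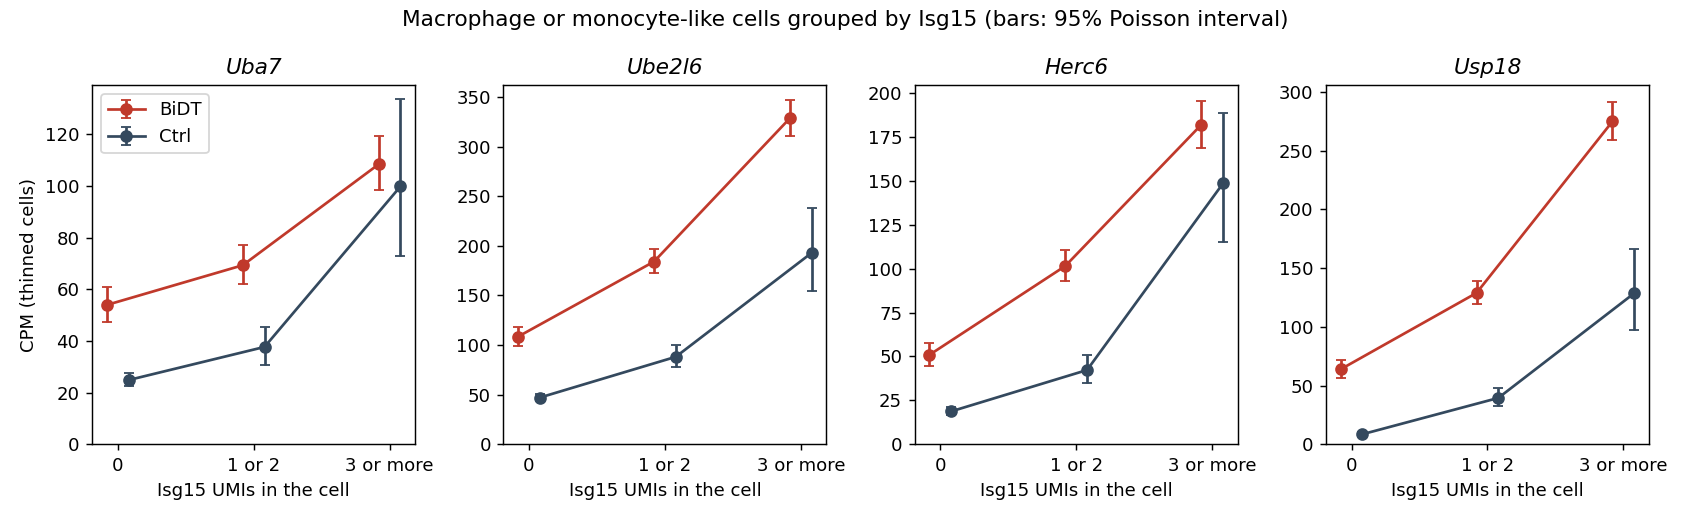
Level of the 4 other genes (CPM, cells thinned to 1000 UMIs) in macrophage or monocyte-like cells with 0, 1 or 2, and 3 or more Isg15 UMIs, BiDT in red and Ctrl in blue, with 95% Poisson intervals. Each line goes up from left to right in both libraries. BiDT lies above Ctrl within each range, except that the intervals overlap for Uba7 and Herc6 at 3 or more UMIs. The ranges do not make Isg15 equal between the libraries, since the highest has no upper limit and the lowest rests on thinned counts.

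The difference between the libraries was also present in cells without a detected Isg15 transcript. Macrophage or monocyte-like cells with 0 Isg15 UMIs had 63.8 CPM of Usp18 in BiDT and 8.53 in Ctrl. CD8 T-like cells with 0 Isg15 UMIs had 189 in BiDT (95% interval 164 to 215) and 3.92 in Ctrl (1.44 to 8.54). NK-like cells with 0 Isg15 UMIs had 134 in BiDT and 13.8 in Ctrl. Within BiDT, Usp18 in CD8 T-like cells was 253 with 1 or 2 and 434 with 3 or more Isg15 UMIs. That order was not seen for each gene in each class. In BiDT NK-like cells Ube2l6 stood at 19.1 CPM with 0 and 14.8 CPM with 1 or 2 Isg15 UMIs, on 21 and 6 UMIs, and Uba7 at 48.2 CPM with 0 and 34.6 CPM with 1 or 2. In BiDT tumour or stromal-like cells Ube2l6 stood at 137, 245 and 190.5 CPM across the 3 ranges. In Ctrl CD8 T-like cells Uba7 stood at 23.5 CPM with 0 and 16.1 CPM with 1 or 2, the second value from 1 UMI.

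Macrophage or monocyte-like cells were further described by their complement C1q transcripts (C1qa, C1qb and C1qc), which mark mature tissue macrophages. Cells with at least 20 C1q UMIs per 10000 are called C1q-high here (5137 BiDT and 7903 Ctrl cells) and those with fewer than 5 C1q-low (5936 BiDT and 8137 Ctrl cells). These are ranges of a continuous value and not cell types, and 2584 BiDT and 3528 Ctrl cells lay between them. All 5 genes were at least 1.5-fold higher in BiDT in both ranges (20.2% of genes tested were higher and 14.1% lower in C1q-high cells, 12% and 6.34% in C1q-low cells, and with TMM scaling 13.7% and 22.4% and 9.36% and 9.39%). Isg15 stood at 2107 CPM in BiDT and 157 CPM in Ctrl in C1q-high cells (log2 3.74 (3.71 to 3.77)) and at 2018 CPM in BiDT and 293 CPM in Ctrl in C1q-low cells (2.79 (2.76 to 2.81)). The BiDT levels of the ranges were close, and the Ctrl level was lower in C1q-high cells. Usp18 had the same arrangement, with 180.1 CPM in BiDT and 11.4 CPM in Ctrl (3.98) in C1q-high and 180.4 CPM in BiDT and 18.1 CPM in Ctrl (3.32) in C1q-low cells, where the ratio was 2.66 between 2000 and 4000 UMIs. Herc6 had log2 ratios of 2.80 and 1.96, Ube2l6 of 2.38 and 1.71, and Uba7 of 1.81 and 1.28. Each of the 5 genes thus had a larger ratio in the C1q-high range, by intervals that did not overlap. Malat1 took 0.962% of UMIs in BiDT and 0.346% in Ctrl in C1q-high cells, and 0.733% in BiDT and 0.434% in Ctrl in C1q-low cells. Median depth was 3045 UMIs in BiDT and 6364 in Ctrl in C1q-high cells, and 3152.5 in BiDT and 4210 in Ctrl in C1q-low cells. The part of either in the larger C1q-high ratios was not tested.

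No class is known to lack these genes, so RNA set free by macrophages, the largest class, was gauged by the C1q transcripts found elsewhere. Outside the macrophage or monocyte-like class C1q stood at 2.7 to 8.37% of its level there. If the 5 genes were carried over in that proportion, carry-over would equal 7.93% of the Isg15 level of CD8 T-like cells in BiDT and 18.2% in Ctrl. In NK-like cells it would equal 17.9% of the Isg15 level in BiDT and 10.7% in Ctrl. Only for Ube2l6 in NK-like cells did the figure exceed 30%, at 38% in BiDT and 32.5% in Ctrl. For Usp18 it was 2.59% in BiDT and 10.5% in Ctrl in CD8 T-like cells.

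Genes around the system were examined as lists, to show which neighbours of the 5 differed. Ubiquitin and its relatives use parallel cascades of activating, conjugating and ligating enzymes, and few of these genes were past 1.5-fold over all cells. Over all filtered cells, 0 of 16 ubiquitin and ubiquitin-like modifiers were at least 1.5-fold higher in BiDT and 0 lower (median log2 -0.06). Likewise 0 were higher and 0 lower of 9 other activating enzymes (median -0.10), with the main ubiquitin-activating enzyme Uba1 at -0.52. Of 28 other conjugating enzymes 0 were higher and 1 lower (median -0.01). Of 31 other ubiquitin-specific proteases 3 were higher and 0 lower (median 0.14), led by Usp25 at 193 CPM in BiDT and 109.6 CPM in Ctrl (log2 0.82). Among all genes tested over all cells, 24.5% were higher and 6.65% lower, with a median of 0.16.

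Within classes more of them could be past 1.5-fold. In cDC2-like cells 5 of 15 other ubiquitin-specific proteases were higher and 3 lower, and of 25 other conjugating enzymes 1 was higher and 5 lower, where 12.5% of all genes tested were higher and 14.1% lower. In cDC1-like cells 0 of 21 conjugating enzymes were higher and 4 lower, beside 10.6% and 15% of all genes tested. In CD8 T-like cells 1 of 28 conjugating enzymes was higher and 1 lower, and of 31 proteases 1 was higher and 0 lower. Among all genes tested there, 9.6% were higher and 4.46% lower. Ube2c, a conjugating enzyme used in cell division, was higher in CD8 T-like cells (525 CPM in BiDT and 219.9 CPM in Ctrl, log2 1.25) and lower in macrophage or monocyte-like cells (40.8 CPM in BiDT and 107 CPM in Ctrl, -1.39). Herc3, another gene of the ligase family, was at 47 CPM in BiDT and 25.6 CPM in Ctrl in CD8 T-like cells (0.88). In NK-like cells it was at 38.7 CPM in BiDT and 16.9 CPM in Ctrl (1.20). Of 4 other HERC ligases, 1 (Herc3) was past 1.5-fold over all cells (1.21). That share is near the 24.5% of all genes tested that were higher. Herc1 and Herc2 were at 0.06 and 0.01 in CD8 T-like cells.

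**Figure D5:**
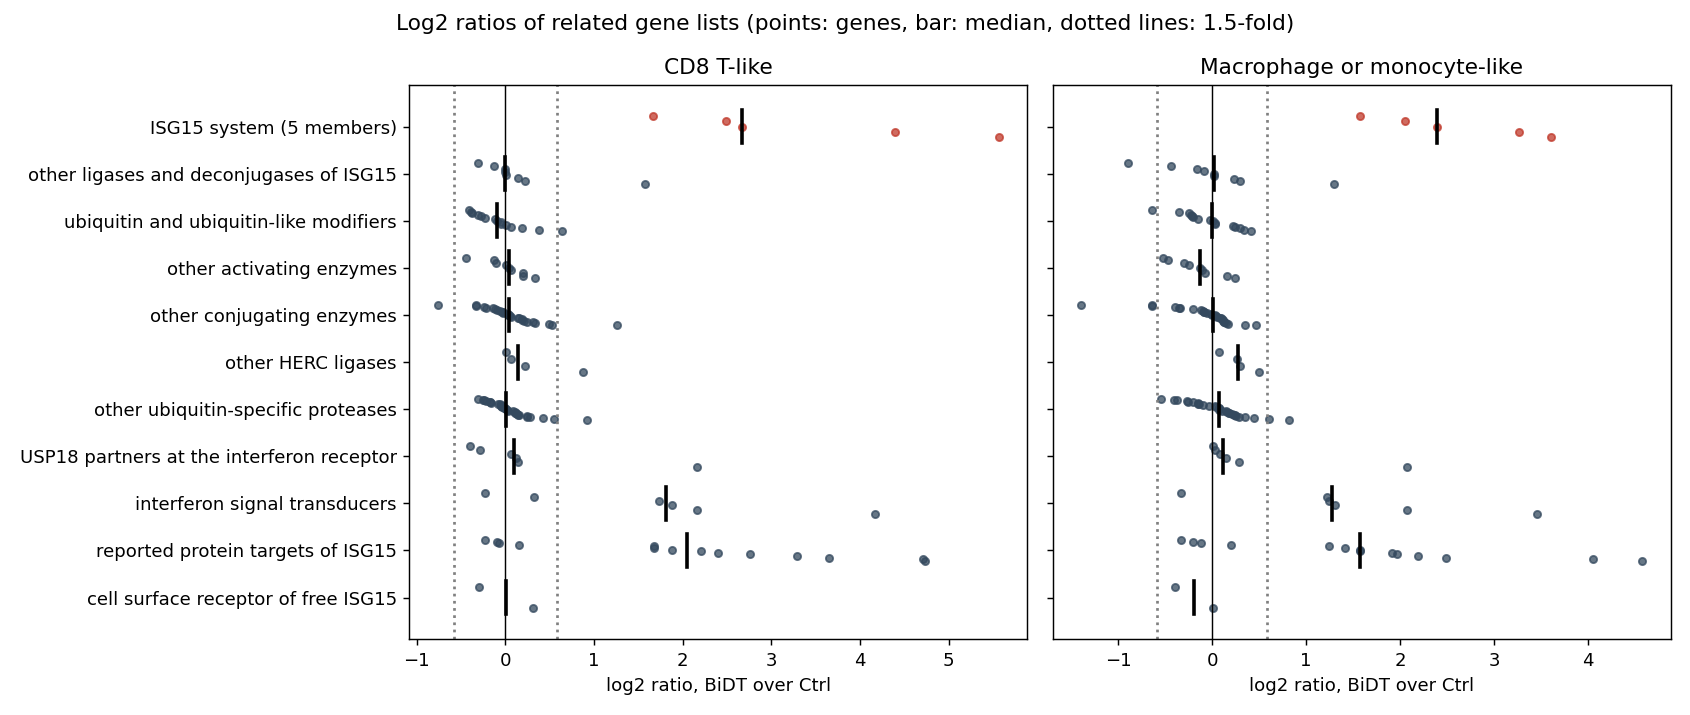
Log2 ratios of BiDT over Ctrl for genes of the ISG15 system (red) and of related lists (blue) in the CD8 T-like and the macrophage or monocyte-like class. Each point is a gene with at least 50 UMIs, the bar is the median of its list and dotted lines mark 1.5-fold. The 5 ISG15 system genes, the signal transducers and the reported targets extend to the right, and the other enzyme lists centre near 0.

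Among other enzymes reported to add or remove ISG15, mostly in human cells, Trim25 was the 1 of 9 that was at least 1.5-fold higher over all cells. Usp2 was the 1 that was lower (-0.83). For all genes tested the shares were 24.5% higher and 6.65% lower. Trim25, a ubiquitin ligase of the RIG-I pathway that also acts on ISG15, stood at 348 CPM in BiDT and 170.2 CPM in Ctrl (log2 1.03). Its ratio was 1.88 in tumour or stromal-like cells, 1.58 in CD8 T-like, 1.30 in macrophage or monocyte-like, 1.22 in NK-like and 0.67 in neutrophil-like cells. Arih1, reported in human cells as another ligase of ISG15, had a log2 ratio of 0.27.

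Of 6 partners that USP18 meets at the interferon receptor, 1 was at least 1.5-fold higher over all cells, beside 24.5% of all genes tested. Stat2, the transducer to which USP18 binds, stood at 266 CPM in BiDT and 77.4 CPM in Ctrl over all cells (log2 1.78), at 2.16 in CD8 T-like cells and 2.07 in the macrophage or monocyte-like class. The receptor chains did not reach 1.5-fold over all cells, with Ifnar1 at -0.12 and Ifnar2 at -0.18. In neutrophil-like cells Ifnar1 was lower, at 49.7 CPM in BiDT and 85 CPM in Ctrl (-0.77), and the receptor-associated kinase gene Tyk2 higher (0.72). Tyk2 was also past 1.5-fold in cDC2-like cells, at 0.64 with an interval (-0.02 to 1.27) that included 0. Skp2, a ubiquitin ligase subunit, was past it in NK-like cells (1.32 (0.10 to 2.83)), on only 52 BiDT and 6 Ctrl UMIs. Of 6 signal transducers of the interferon pathway, 5 were at least 1.5-fold higher over all cells (median 1.20), beside 24.5% of all genes tested. Irf7, the transcription factor that amplifies interferon production, stood at 592 CPM in BiDT and 67.8 CPM in Ctrl (3.13), and Irf3, its constitutive relative, at 24.5 CPM in BiDT and 26.3 CPM in Ctrl (-0.10).

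Transcripts of proteins reported to be modified by ISG15, many of which are interferon-induced genes themselves, were mostly higher too. The list holds 16 genes, of which 14 were measured. Over all cells 10 of these were at least 1.5-fold higher and 0 lower (median log2 1.53), beside 24.5% and 6.65% of all genes tested. The antiviral RNA-binding gene Ifit3 stood at 288 CPM in BiDT and 15.2 CPM in Ctrl (4.24), and Bst2, which encodes the virus-tethering protein tetherin, at 1299 CPM in BiDT and 263 CPM in Ctrl (2.31). The lowest ratios of the list were those of the glycolytic enzyme gene Pkm, at 1165 CPM in BiDT and 1488 CPM in Ctrl (-0.35), and of the conjugating enzyme gene Ube2n (-0.21). Irf3 stands both in this list and among the transducers. The count was 10 of 14 in CD8 T-like cells and 10 of 14 in NK-like cells, where 9.6% and 12.6% of all genes tested were higher. Itgal and Itgb2 encode the LFA-1 integrin on which free ISG15 acts. Over all cells Itgal was higher (0.70) and Itgb2 lower (-0.67). In CD8 T-like cells they stood at 0.32 and -0.30 and in NK-like cells at 0.22 and -0.34, neither past 1.5-fold. Itgal was higher in cDC1-like (1.32), migratory DC-like (1.27), cDC2-like (1.16) and tumour or stromal-like cells (0.96), and Itgb2 lower in neutrophil-like cells (-0.81).

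The genes whose levels ran most alike to each of the 5 were found over 20 points, the 10 classes in each library, by Pearson's correlation of log2(CPM + 1) among 12234 genes with at least 500 UMIs. The points share 2 libraries, so the difference between the libraries enters each coefficient, and no p-value is given. Isg15 was closest to Oas3 (r = 0.953), Parp14 (0.948) and Rsad2 (0.936), and Usp18 to Irf7 (0.928), Ogfr (0.918) and Daxx (0.909). Herc6 was closest to Psme2b (0.927), AW011738 (0.911) and Isg15 (0.905). The genes nearest to Ube2l6 were Parp12 (0.886), Znfx1 (0.877) and Tapbp (0.863), and those nearest to Uba7 were Clec2d (0.908), H2-T23 (0.894) and Tap2 (0.881). Among the 5 themselves, the highest coefficient over the 20 points was that of Isg15 with Herc6, and over the 10 classes of a single library it was 0.755 in BiDT and 0.815 in Ctrl. Within BiDT, Isg15 with Ube2l6 had the highest coefficient, 0.798. Isg15 and Usp18 were less alike within a library, at 0.32 in BiDT and 0.499 in Ctrl.

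Cells that the gate left without a class, for too few markers or too small a lead over another panel, numbered 10976 in BiDT and 5786 in Ctrl. Their median depths were 2065 UMIs in BiDT and 2894 UMIs in Ctrl. All 5 genes were at least 1.5-fold higher in BiDT in these cells as well (17.4% of genes tested were higher and 9.43% lower, or 14.1% and 12.7% with TMM scaling). Isg15 stood at 1299 CPM in BiDT and 223 CPM in Ctrl (log2 2.54), and Usp18 at 148 CPM in BiDT and 16.4 CPM in Ctrl (3.17). Herc6, Ube2l6 and Uba7 had log2 ratios of 1.72, 1.29 and 0.91, each smaller than in macrophage or monocyte-like cells.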

How the data were processed

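The authors deposited 1 matrix of raw, unnormalized UMI counts per library, with genes in rows and barcodes in columns. Cell Ranger 7.1.0 and the GRCm39 build are named in the submitters' processing notes, and the sources at hand state no annotation release. The barcodes consist of 3 segments of 9 bases, which is not the form Cell Ranger writes. The 5 genes, the lists of related genes and the marker panels were chosen with earlier results of these data known, as were the tests.

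From the counts, cells with at least 500 UMIs, at least 300 genes and at most 10% mitochondrial UMIs were kept (572 BiDT and 1702 Ctrl barcodes were above the mitochondrial limit). Scrublet's own thresholds marked 0 cells, so its doublet call had not worked. Cells with a score of at least 0.15 were removed instead, 2714 in BiDT (7.88%) and 2192 in Ctrl (6.72%). A cell entered a class with at least 3 of 8 panel markers detected and at least 2 more than in any other panel. The cells that just met this rule numbered 6509 in BiDT and 5588 in Ctrl, and those that just missed it 6468 in BiDT and 3870 in Ctrl.

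UMIs were summed per class and library. Levels have exact Poisson and ratios exact conditional binomial 95% intervals, and shares of cells have Clopper-Pearson intervals. With 1 library per group no test was made; a gene counts as higher or lower past 1.5-fold, among genes with at least 50 UMIs. The deeper Ctrl library has narrower intervals per cell. The genes named are the 5 themselves, up to 3 of the highest and 3 of the lowest ratios of each list over all cells, and the 3 most alike by correlation; the classes for which their values are given were picked after the values were seen, and 1 list gene is not reported here. Alternatives covered scaling, depth (cells of at least 2000 and under 4000 UMIs among them), gates, clusters and filters. The scripts were tested on simulated counts. TMM factors came from edgeR 4.0.16 in R 4.3.3, clusters from scanpy 1.11.5 with igraph 0.11.9, and all else from scipy 1.17.1, pandas 2.3.3 and numpy 2.4.6 in Python 3.11.15.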

Additional observations from a re-analysis of the deposited data

How the results depend on the processing

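The counts of ISG15 system genes past 1.5-fold were recomputed under 12 settings, which gave 154 values, of which 148 lay within 1.5 times the count reported. The other 6 were a count of 1 in regulatory T-like cells with a gate on thinned cells, counts of 4, 5 and 1 in cDC1-like cells with a looser gate, with a gate on thinned cells and between 2000 and 4000 UMIs, a count of 1 in cDC2-like cells with a stricter gate, and a count of 2 in migratory DC-like cells between 2000 and 4000 UMIs. The stricter gate and the depth range leave fewer cells by construction. Under each gate a gene had to keep 50 UMIs to be counted, so these counts vary with the UMIs left as well as with the ratios. In the regulatory T-like and cDC2-like counts of 1 under a gate, both Isg15 and Usp18 were past 1.5-fold, so those counts are not counts of genes that kept their ratio. In the depth range the 50 UMIs were those of the reported setting. How far cells and ratios each acted was not tested. Of 768 log2 ratios of single genes, 5 changed sign where the reported ratio was past 1.5-fold on at least 50 UMIs: Uba7 in regulatory T-like cells with a gate on thinned cells (-1.06), in NK-like cells between 2000 and 4000 UMIs (-0.44) and in thinned cDC2-like cells (-0.011), and Ube2l6 between 2000 and 4000 UMIs in cDC1-like (-0.024) and cDC2-like cells (-0.070). Counting also ratios reported as smaller than 1.5-fold or on fewer UMIs, 14 values lay below 0, and 43 moved by over 1.5-fold. Of the 43, 38 were in the conventional CD4 T-like, regulatory T-like, NK-like, cDC1-like, cDC2-like and migratory DC-like classes. Without the filter of 50 UMIs the share of all genes that were higher in CD8 T-like cells was 16%, against 9.6% with it. Leiden clusters gave no cDC1-like or cDC2-like cluster and thus no value there. The settings that leave out barcodes found in both libraries and that keep cells of 2000 to under 4000 UMIs were chosen after seeing the data. No paired analysis was possible because each group is 1 library with no replicate number. With 5 biological replicates pooled into each library, the spread between animals was not measured.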

Other observations

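Some panels were met by fewer than 50 cells in 1 or both libraries, and their values are given here with no comparison drawn. Gamma delta T-like cells (43 in BiDT and 58 in Ctrl) had 936.4 CPM of Isg15 in BiDT and 103 CPM in Ctrl, and 249 CPM of Usp18 in BiDT and 19.4 CPM in Ctrl, the last from 3 UMIs. Plasmacytoid DC-like cells, a type known as a strong source of type I interferon, numbered only 14 in BiDT and 44 in Ctrl. They had 562 CPM of Isg15 in BiDT and 40.9 CPM in Ctrl, while Uba7 stood at 31.2 CPM in BiDT from 2 UMIs and 61.4 CPM in Ctrl from 12 UMIs. Mast cell-like cells (22 in BiDT and 11 in Ctrl) had 3245 CPM of Isg15 in BiDT, with an interval of 2864 to 3662, and 918 CPM in Ctrl, with an interval of 667 to 1233. Plasma cell-like cells (40 in BiDT and 7 in Ctrl) had 460.5 CPM of Isg15 in BiDT and 75.2 CPM in Ctrl. B-like cells (24 in BiDT and 9 in Ctrl) had 294 CPM of Isg15 in BiDT and 123 CPM in Ctrl (4 UMIs), and 0 UMIs of the 4 other genes in Ctrl, which allows up to 114 CPM by the exact interval.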
